A study of Mus musculus with 11 samples.

Results

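Open chromatin centred outside genes but within 50 kb of a protein-coding transcription start site (TSS) was examined in dopaminergic (DA) neurons of the mouse embryo. The regions were selected on their measured peaks: a peak in all 3 DA libraries, none in either of 2 serotonergic (5-HT) libraries, and a centre outside every annotated promoter and gene body of the mm9 genome. Promoters were taken as the 1 kb before each TSS and the 100 bp after it. This choice gave 3551 regions of the 131942 in the data, called DA-only near regions below. They are part of the 17616 regions that were DA-only anywhere in the genome (13.4% of all regions), and another 4794 intergenic DA-only regions lay beyond 50 kb. Since presence in these libraries defined the regions, their number and their scores are given as a description and were not tested.

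Both groups were embryos of day 14.5, sired by transgenic males in Swiss wild-type females, and tissue from several embryos was pooled for each sort. DA neurons were GFP+ cells sorted from ventral mesencephalons of TH-GFP mice, in which the rat Th promoter drives GFP. 5-HT neurons were YFP+ cells sorted from hindbrain rhombomeres of Mash1-CRE x ROSA YFP mice. Mash1 is a proneural factor of many neural progenitors, including those of 5-HT neurons. The study stained sorted cells for Th or Tph2 to check the sorts, which was not analysed here. In ATAC-seq, a transposase inserts adapters into accessible DNA, and a peak is a place where insertions gather. Accessible DNA away from genes often holds enhancers, which bind transcription factors and act on the promoters of genes nearby or farther away. Midbrain DA neurons form under Shh and Wnt1 signals and depend on factors such as Otx2, Foxa1, Foxa2, Lmx1a, En1, Nr4a2 and Pitx3.

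The promoters of marker genes were looked up to check the labels. The promoter of Th, the rate-limiting enzyme of dopamine synthesis, had scores of 9.91, 10.6 and 8.45 in the DA libraries and no peak in the 5-HT libraries. The promoter of Lmx1a, a LIM homeodomain factor of the DA lineage, had scores of 5.00, 5.62 and 4.09 and likewise no 5-HT peak. All 9 DA markers had a promoter peak in every DA library, and 5 of them had one in both 5-HT libraries. Of 6 serotonergic markers, 2 had a promoter peak in both 5-HT libraries and 4 in all DA libraries. Tph2, which makes the precursor of serotonin, had scores of 9.91, 7.59 and 11.1 in the DA libraries and of 7.09 and 3.59 in the 5-HT libraries. Fev, a factor that defines 5-HT neurons, had a promoter peak only in 5-HT replicate 1, with a score of 3.88. The 4 in all DA libraries were Tph2, Gata3, Htr1a and Slc6a4. The last is counted through a DA-only near region that reaches into its promoter, so the choice of regions fixed its presence there and its absence from the 5-HT libraries. In 5-HT replicate 1, Tph2, Fev, Gata3 and Gata2 had a promoter peak. Scores are not known to share a scale between libraries. Summed over the DA markers they were 68.0, 70.2 and 61.0 for DA replicates 1 to 3 and 30.4 and 19.8 for the 5-HT replicates. Summed over the serotonergic markers they were 26.3, 28.0 and 24.8, of which Slc6a4 gave 4.80, 6.56 and 3.76, and 20.3 and 14.1. Of the 4 microglial markers none had a peak in any library. Of 4 astroglial and radial glial markers, 3 had one in all DA libraries and 1 in both 5-HT libraries, with summed scores of 18.7, 20.7 and 18.5 and of 15.6 and 6.27, and Gfap had the highest scores in the DA libraries. Of 4 oligodendrocyte markers, 2 had one in all DA libraries and 3 in both 5-HT libraries, and Sox10 had none in any library. Of 3 glutamatergic markers, 2 had one in all DA libraries and 0 in both 5-HT libraries, led by the transporter gene Slc17a6, whose scores were 9.97, 12.9 and 12.8 in DA replicates 1 to 3 and 3.65 for 5-HT replicate 1. Of 5 endothelial and pericyte markers, Cldn5 alone had one in all DA libraries, with scores of 4.86, 4.94 and 5.22, and 0 had one in both 5-HT libraries. Of 4 noradrenergic markers, 0 had one in all DA libraries. Of 3 GABAergic markers, 3 had one in all DA libraries and 2 in both 5-HT libraries. The part of other cells in the DA-only near regions was not tested.

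The 5-HT libraries held fewer peaks, with 38772 and 22879 against 52861, 93055 and 94351 in DA replicates 1, 2 and 3. Of the 24352 intergenic regions near a TSS with a peak in any library, the DA-only near regions made up 14.6%. Of the 8048 with a peak in all DA libraries, they made up 44.1% (95% Wilson interval 43.0 to 45.2%), beside 2440 regions that also had a peak in 1 5-HT library and 2057 present in all 5 libraries. Intervals cover counting error only. When each library was reduced to its 22879 highest-scoring peaks, 737 regions met the same rule, 27.0% of those in all DA libraries. Of these, 584 were DA-only near regions and 153 had a lower-scoring 5-HT peak. Leaving out DA replicate 1 raised the number to 6499, and leaving out 5-HT replicate 1 raised it to 5663. The 5-HT libraries were made from fewer sorted cells, had fewer peaks and came from another mouse line and tissue, and the parts of these in the absence of a 5-HT peak cannot be told apart.

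The scores of DA-only near regions were moderate. Their medians were 4.72, 5.30 and 4.89 in DA replicates 1, 2 and 3, where the highest values were 16.5, 18.9 and 21.2. Near regions present in all 5 libraries had medians of 7.16, 8.44 and 7.68, and those seen in 1 5-HT library lay between, at 5.71, 6.67 and 5.97. As percentiles among the peaks of each library, the medians of the DA-only near regions were 42.0, 62.9 and 65.0. Their scores ranked alike across libraries, with Spearman's rho from 0.705 to 0.738 over the 3551 regions, which share peak calling and base composition. The DA-only share fell along the scores. Near regions with a peak in all DA libraries were ordered by their lowest percentile over these libraries, and split into 10 classes of nearly equal size. In the lowest class 72.4% were DA-only (95% Wilson interval 69.2 to 75.4%), and in the highest class 9.19% (7.39 to 11.4%).

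The same rule was also applied to fewer libraries, so that the libraries left out could be looked up. Regions were chosen by a peak in 2 DA libraries and none in 1 5-HT library, in 6 combinations. The left-out DA library had a peak at 56.1 to 95.6% of them and the left-out 5-HT library at 6.07 to 35.8%. At equal numbers of peaks, these ranges were 71.4 to 82.6% and 19.3 to 42.1%. In each of the 6 combinations the DA library held the higher share, by at least 33.1 percentage points with all peaks and 35.5 at equal numbers. The combinations reuse the same 5 libraries and are not separate observations. Over all intergenic near regions the DA libraries also held more peaks, with 9520, 17426 and 16990 against 6392 and 3337. With all peaks, the part of peak number in the higher DA share was not tested. At equal numbers, detection over all near regions was not counted. With 3 libraries against 2, no test was made.

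The DA-only near regions were 466 bp wide in the median, against 762 bp for near regions present in all 5 libraries and 316 bp for all intergenic near regions. Their centres lay a median of 18.7 kb from the nearest protein-coding TSS, with quartiles of 8.46 and 31.4 kb. Within 5 kb lay 13.9% (95% Wilson interval 12.8 to 15.0%), against 17.7% (16.2 to 19.5%) of the near regions of all 5 libraries and 14.6% (14.2 to 15.0%) of all intergenic near regions. Among near regions with a peak in all DA libraries, the DA-only share was 40.8% (38.1 to 43.6%) within 5 kb. It was 43.9% from 5 to 10 kb and 41.6% from 10 to 20 kb. Beyond 20 kb it was higher, with 46.1% up to 30 kb, 47.7% (44.8 to 50.6%) from 30 to 40 kb and 46.5% from 40 to 50 kb. The intervals of neighbouring classes overlapped. DA-only near regions lay upstream of the TSS in 64.9% of cases (63.4 to 66.5%), and all intergenic near regions in 64.6%. The promoter of the nearest gene had a peak in all 5 libraries for 52.8% of the DA-only near regions (51.2 to 54.5%), beside 54.8% (52.7 to 57.0%) for near regions of all 5 libraries and 49.0% (48.4 to 49.6%) for all intergenic near regions. The 52.8% became 39.1% at equal numbers of peaks and 19.4% with the 10000 highest peaks of each library. With all peaks, the promoter had a peak in all DA libraries and no 5-HT library, leaving out the regions themselves, for 2.53% (2.07 to 3.10%) against 1.80% (1.31 to 2.47%) and 2.30% (2.12 to 2.50%). These intervals overlapped. A 5-HT peak lay within 1 kb of 211 DA-only near regions (5.94%).

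The regions nearest the limit of 50 kb on either side were as follows. The last inside lay 49972 bp from Bend7 and had scores of 8.27, 9.64 and 8.96 in DA replicates 1 to 3. The one before it lay 49969 bp from Bbs10, with scores of 5.26, 7.06 and 5.04, and the one before that 49928 bp from Klf5, with 5.73, 4.81 and 4.30. The first outside lay 50020 bp from C130026L21Rik, with scores of 4.54, 6.26 and 3.90. The next lay 50074 bp from Fggy, with scores of 4.41, 4.81 and 4.00, and the one after it 50098 bp from Tbc1d9, with the highest scores of these outside regions, 8.15 and 7.52 in DA replicates 2 and 3. The scores inside and outside overlapped. The lowest scores of DA-only near regions, 3.45, 3.05 and 3.03, lay at or just above the lowest score of any peak in these libraries, which was 3.45, 3.04 and 3.03.

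Sequence was not part of the choice. In the 200 bp around their centre, which reach past the narrowest regions, DA-only near regions had a median GC content of 48.5%, against 53.0% for near regions of all 5 libraries, 49.0% for all intergenic near regions and 44.5% for windows 5 kb away from them. A ratio of observed to expected CpG above 0.6 was found in 5.44% of them (95% Wilson interval 4.74 to 6.23%), in 26.6% (24.7 to 28.5%) of the near regions of all 5 libraries and in 7.76% (7.43 to 8.10%) of all intergenic near regions. Next, 20 short words resembling parts of known binding motifs were counted on both strands. A word is a string of letters, and a match does not show that a factor binds. The word AAAGGTCA, the site of NR4A factors as monomers, was found in 2.79% of the DA-only near regions (2.30 to 3.38%). It was found in 0.632% of the near regions of all 5 libraries (0.370 to 1.08%), in 0.968% of the flanking windows (0.756 to 1.24%), in 1.72% (1.56 to 1.89%) of all intergenic near regions and in 1.88% of all regions. The shorter AGGTCA, which AAAGGTCA contains, was found in 13.0% (12.0 to 14.2%) and 8.17%, but also in 12.6% (11.8 to 13.4%) of the flanking windows and 11.1% of all intergenic near regions.

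Words of several factor families were more frequent than in the near regions of all 5 libraries, with intervals apart. GGATTA, the core that OTX and PITX factors bind, was held by 9.86% of the DA-only near regions (8.92 to 10.9%) and 4.28% (3.49 to 5.24%) of the near regions of all 5 libraries, but by 8.89% of the flanking windows. All intergenic near regions held it in 7.26%. TAATTA, a core of LIM and other homeodomain factors, was held by 7.91% (7.07 to 8.85%) and 4.52% (3.70 to 5.51%), and the difference shrank to 0.910 percentage points when the second share was standardised to the GC content of the DA-only near regions. All intergenic near regions held it in 5.95%. The forkhead word TGTTTAC was held by 4.84% (4.19 to 5.60%) and 1.99% (1.47 to 2.69%), with 2.87% in the flanking windows and 3.74% in all intergenic near regions. The E-box words CAGATG and CAGCTG, cores for bHLH factors, were held by 22.2% and 22.7% against 15.5% and 17.0%. The flanking windows held them in 15.7% and 8.29%, and all intergenic near regions in 20.0% and 19.0%. The GATA word AGATAA was held by 9.55% (8.62 to 10.6%) against 6.51%, or 8.68% standardised to GC content, but by 9.33% of all intergenic near regions and 10.8% of the flanking windows. The AP-1 word TGANTCA was held by 6.98% (6.19 to 7.87%) against 4.52%, but by 6.35% of all intergenic near regions. For the GATA and AP-1 words the DA-only near regions were thus close to intergenic near regions in general. For the OTX and PITX, LIM homeodomain, forkhead and both E-box words their share was higher, with intervals apart. The GC box GGGCGG of SP and KLF factors went the other way, with 5.52% (4.82 to 6.32%) against 18.8% (17.2 to 20.6%) of the near regions of all 5 libraries. The second share was 9.86% when standardised to GC content, and all intergenic near regions held the word in 6.87%. AGGGGGC, a part of the CTCF core, was held by 6.14% (5.40 to 6.98%) against 8.07% (6.97 to 9.33%), and these intervals overlapped. All intergenic near regions held AGGGGGC in 5.78%, the flanking windows in 1.69% and DA-only regions beyond 50 kb in 2.88%. The SOX word ACAAAG was held by 16.4% (15.3 to 17.7%) against 17.7% (16.2 to 19.5%), and these intervals overlapped. All intergenic near regions held it in 17.9%. Standardised to GC content the second share was 21.3%, above that of the DA-only near regions. A second SOX word, ACAATG, was held by 8.87% (7.98 to 9.85%) against 9.09% (7.92 to 10.4%), or 11.4% standardised to GC content. All intergenic near regions held ACAATG in 10.5% (10.1 to 10.9%). At equal numbers of peaks its shares were 10.2% (8.20 to 12.6%) against 8.48% (7.03 to 10.2%), the other direction with intervals overlapping. DA-only regions beyond 50 kb held AAAGGTCA in 4.09% (3.56 to 4.69%) and TAATTA in 11.5% (10.7 to 12.5%), both above the shares within 50 kb. Their shares were also higher for GGATTA (11.5%), TGTTTAC (6.17%), CAGATG (24.5%), CAGCTG (23.3%) and AGATAA (11.9%). For AGGTCA (11.8%) and TGANTCA (6.74%) they were lower. Most of the raised word shares were thus not particular to DA-only regions within 50 kb. Among the 737 regions chosen at equal numbers of peaks, only the OTX and PITX, LIM homeodomain and both E-box words kept a higher share with intervals apart from the near regions of all 5 libraries. The intervals overlapped for AAAGGTCA, with 1.76% (1.03 to 2.99%) against 0.588% (0.285 to 1.21%), for the forkhead word, with 3.39% (2.31 to 4.96%) against 1.76% (1.16 to 2.68%), and for the GATA, AP-1 and AGGTCA words. With fewer regions the intervals are wider, and the differences were 2.47 percentage points for the GATA word and 2.83 for the AP-1 word, close to the 3.04 and 2.46 with all peaks. The differences shrank to 3.00 from 4.83 for AGGTCA, to 1.63 from 2.85 for the forkhead word and to 1.17 from 2.16 for AAAGGTCA.

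The regions had 2816 nearest protein-coding genes, 12.7% of 22238, while near regions of all 5 libraries had 1780 (8.00%). Of the 2816 genes, 2280 had a single DA-only near region, and 14 had 5 or more. Among 29 genes of the DA lineage, 12 were the nearest gene of such a region (41.4%, 95% Wilson interval 25.5 to 59.3%). Genes differ in how much intergenic DNA surrounds them, and of the 22 listed genes with any near region, the 12 made up 54.5%, beside 28.8% over all genes. At equal numbers of peaks, 6 of the 12 kept a region chosen by the rule, namely En1, En2, Foxa1, Gfra1, Gch1 and Ebf3. Over all genes, 705 (3.17%) had such a region at equal numbers, in place of 2816. No DA-only near region had Th, Slc6a3, Nr4a2, Pitx3, Lmx1a or Foxa2 as its nearest gene.

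En1, a homeodomain factor needed for the survival of midbrain DA neurons, had 7 DA-only near regions, 1 upstream and 6 downstream, from 7.55 to 25.2 kb away. The one with the highest percentile in its lowest library, chr1:122491212-122491671, lay 7.55 kb upstream, with scores of 7.58, 8.01 and 6.98 in DA replicates 1 to 3. The next by this measure, chr1:122517872-122518443, lay 19.2 kb downstream, with 5.68, 8.29 and 7.91, and was the higher in DA replicates 2 and 3. The En1 promoter itself had a peak in all 5 libraries. En2, its paralogue, had a region 10.8 kb downstream with scores of 5.61, 6.86 and 6.80, and another 7.35 kb upstream with 4.43, 4.67 and 3.92. Msx1, a homeodomain factor of midbrain progenitors, had 5 regions from 7.26 to 36.0 kb away, the highest at chr5:38226958-38227877 with scores of 6.20, 6.76 and 5.22.

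Otx2, which specifies the midbrain, had 3 regions from 1.99 to 6.73 kb away, all with low scores. The one at chr14:49288537-49290089 had 3.68, 3.76 and 3.84. Neurog2, a proneural factor of DA progenitors, had 3, and the one 4.86 kb upstream had 4.80, 5.69 and 3.64. Foxa1, a forkhead factor of the floor plate, had a region 8.85 kb upstream with 6.19, 7.08 and 6.97, and another 15.3 kb downstream with 5.26, 5.73 and 5.50. Ret and Gfra1 encode a receptor and co-receptor for GDNF family factors. The Gfra1 region lay 13.8 kb upstream with 6.10, 7.09 and 10.0, and the Ret region 7.22 kb upstream with 4.89, 4.71 and 3.74. Single regions near Ebf3 (6.74, 9.52 and 7.87), Nr4a1 (4.27, 4.25 and 3.39) and Bnc2 (3.48, 3.32 and 4.06) were also among them.

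Serotonergic genes also had DA-only near regions, 4 of 14 (28.6%, 95% Wilson interval 11.7 to 54.6%). Of the listed genes with any near region these were 30.8%, close to the 28.8% over all genes. The region near Fev, chr1:74927438-74927794, lay 3.57 kb downstream of a TSS with scores of 7.93, 7.71 and 6.43. The region of Slc6a4, the serotonin transporter, lay 1.28 kb upstream with 4.80, 6.56 and 3.76 and reached into the promoter. The Tph2 region lay 6.31 kb upstream with 4.87, 4.97 and 4.90. The region of Nkx2-2, a factor of ventral hindbrain progenitors, lay 37.3 kb downstream with 6.73, 8.76 and 7.85.

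The lists share genes, so their shares are not separate results. En1, En2 and Otx2 of the DA lineage and Nkx2-2 of the serotonergic list are also among the patterning genes, and Wnt1 is in both the patterning and the signal list. Neurog2 of the DA lineage is also among the bHLH factors below, Nr4a1 among the nuclear receptors and Gch1 among the Parkinson disease genes. Rxra of the signal list is also among the nuclear receptors. Pou4f1 and Nkx6-1 of the patterning list are also glutamatergic genes, and Tal2 is both a bHLH factor and a GABAergic gene. Of 25 genes that pattern the midbrain and hindbrain, 10 had such a region (40.0%, 23.4 to 59.3%), or 43.5% of those with any near region. Gbx2, which acts on the hindbrain side of the boundary, had 1 region 10.1 kb upstream with 8.13, 11.0 and 7.16. Wnt1, a signal of the isthmus and ventral midline, had regions 1.74 kb upstream (4.49, 7.22 and 4.63) and 6.51 kb downstream (3.75, 5.12 and 3.82). Pax8 had 2, and Irx3, Nkx6-1 and Pou4f1 had 1 each, with the Nkx6-1 region the lowest at 3.45, 3.54 and 3.20. Of 24 genes for signals of DA neuron development, 8 had a region (33.3%), or 42.1% of those with any near region. The Shh region lay 15.7 kb downstream with 7.56, 9.81 and 7.77, and the region of Cxcr4, a chemokine receptor that guides migration, 24.5 kb downstream with 7.69, 8.88 and 8.89. Gli2 and Gli3, which transmit the Shh signal, each had 1 upstream region, with 4.86, 5.26 and 4.40 near Gli2 and 4.23, 5.81 and 4.61 near Gli3. Rxra, a partner of NR4A factors, had 3, and Bdnf and Fgf20 had 1 each.

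Other lists were read beside the same 12.7% of all genes. Neural bHLH factors had 13 of 31 (41.9%, 26.4 to 59.2%), GABAergic neuron genes 7 of 16 (43.8%, 23.1 to 66.8%) and glial genes 5 of 15 (33.3%, 15.2 to 58.3%). Axon guidance and adhesion genes had 12 of 55 (21.8%, 12.9 to 34.4%), nuclear receptors 7 of 38 (18.4%), SOX factors 4 of 16 (25.0%) and glutamatergic neuron genes 3 of 10 (30.0%). Vascular and microglial genes had 3 of 15 (20.0%), Parkinson disease genes 2 of 20 (10.0%), noradrenergic genes 1 of 6 (16.7%) and the nuclear factor I family 0 of 4. The amount of intergenic open chromatin around a gene differs between lists. Of listed genes with any near region, the share with a DA-only one was 48.1% for bHLH factors, 41.7% for glial genes, 37.5% for vascular and microglial genes and 33.3% for both glutamatergic and noradrenergic genes, beside 28.8% over all genes, and 7 of 14 GABAergic genes had one. It was 30.8% for axon guidance, 28.0% for nuclear receptors, 26.7% for SOX factors and 22.2% for Parkinson disease genes, near or below that of all genes. This share also rises with the number of near regions a gene has. Of the near regions with a peak in all DA libraries, 35.1% were DA-only for bHLH factors, 38.9% for glial genes, 40.0% for noradrenergic genes, 34.6% for nuclear receptors, 30.0% for glutamatergic genes, 26.7% for serotonergic genes and 23.5% for SOX factors, below the 44.1% for all genes. It was 61.1% for DA development signals, 60.0% for vascular and microglial genes (3 of 5 regions), 59.6% for DA lineage genes, 52.4% for GABAergic genes, 51.2% for patterning genes, 47.2% for axon guidance and 2 of 4 regions for Parkinson disease genes. At equal numbers of peaks, no GABAergic, glutamatergic, glial or vascular and microglial gene had a region chosen by the rule, with 3.17% of all genes. Of 14 serotonergic genes 2 had one, Fev and Nkx2-2, as did 4 of 25 patterning genes, 4 of 24 signal genes, 2 of 31 bHLH factors, 3 of 55 axon guidance genes and 1 of 6 noradrenergic genes.

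The 10 DA-only near regions with the highest score percentile in their lowest library lay near genes of mixed kinds. The first, chr13:24041380-24042168, lay 15.4 kb downstream of the histone gene Hist1h2aa and had scores of 16.5, 18.9 and 21.2, with a lowest percentile of 98.9. A second histone gene, Hist1h4c, had the region chr13:23793184-23793343 2.94 kb upstream with 12.0, 14.6 and 11.1. The region near Tbx19, a T-box factor, had 12.9, 13.4 and 13.3. The region near Med10, a Mediator subunit, had 12.4, 13.3 and 13.8. That near the chemokine gene Cxcl2 had 12.1, 14.7 and 14.0. The others lay near Zfp648, Ifrd1, Prnd, Gm17567 and Incenp, with lowest percentiles from 94.2 to 94.5. In all 10, each 75-base word of the central 200 bp occurred once in mm9.

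Several genes with the most regions had some of them in repeated sequence. Of the 10 genes with most DA-only near regions, Gm17019 had 10, Gm10354 and 4930467E23Rik 9 each, Cwc22 8, and En1, Speer4d and Gm17521 7 each. Speer4e, Gm9758 and Gm4840 had 6 each. Gm17019, Gm10354, Speer4d, Speer4e and Gm9758 all lie on chromosome 5, where their regions spanned 14871342 to 15138746. Repeated words of 75 bases were looked for in the 200 bp around each centre alone. At 4930467E23Rik on chromosome 8, over 50% of them were repeated in the genome in 7 of 9 regions, and at Speer4d in 4 of 7. This held for fewer regions of Gm10354 (4 of 9), Gm17019 (3 of 10) and Gm17521 (2 of 7). For Speer4e and Gm9758 it was 1 of 6 each, and for Gm4840 0 of 6. Reads from such copies cannot be placed with certainty. Over all DA-only near regions, 1.30% (95% Wilson interval 0.973 to 1.72%) exceeded this 50%, against 0.340% (0.165 to 0.701%) of the near regions of all 5 libraries and 1.15% (1.02 to 1.29%) of all intergenic near regions. The regions of Cwc22, a splicing factor, and En1 held no repeated word in these windows. Those of Cwc22 were up to 13574 bp wide, so most of their sequence was not looked at. The widest, chr2:77710798-77724371, had scores of 4.29, 8.26 and 4.89, and the next, chr2:77822996-77833577 with 10582 bp, had 3.76, 5.16 and 4.27. The widest reached into the gene body of Cwc22, since only centres had to lie outside genes.

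Of 59 named DA-only near regions looked at for sequence, 15 held the NR4A, OTX and PITX, LIM homeodomain or forkhead word in the 200 bp around their centre. Over all DA-only near regions these words, taken singly, were held by 2.79%, 9.86%, 7.91% and 4.84%. The share of all DA-only near regions with any of them was not counted, so the 15 do not set the named regions apart. Of the 10 with most of these words, and then with the highest score percentile in their lowest library, 9 are shown so that the words can be seen in place. Windows are on the plus strand of mm9, at chr13:24041675-24041874 (Hist1h2aa), chr5:91338089-91338288 (Cxcl2), chr1:91839882-91840081 (Gbx2), chr2:146974643-146974842 (Nkx2-2), chr14:104852675-104852874 (Pou4f1), chr1:122520411-122520610 (En1), chr10:114628287-114628486 (Tph2), chr6:118154888-118155087 (Ret) and chr3:127331095-127331294 (Neurog2). Capitals mark a match on either strand. The Cxcl2 region is 149 bp wide, and its word lies in the window but outside the region.
Hist1h2aa: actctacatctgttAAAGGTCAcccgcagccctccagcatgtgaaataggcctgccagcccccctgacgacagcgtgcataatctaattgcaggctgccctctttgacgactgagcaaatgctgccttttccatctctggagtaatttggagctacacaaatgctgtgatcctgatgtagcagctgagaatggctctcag
Cxcl2: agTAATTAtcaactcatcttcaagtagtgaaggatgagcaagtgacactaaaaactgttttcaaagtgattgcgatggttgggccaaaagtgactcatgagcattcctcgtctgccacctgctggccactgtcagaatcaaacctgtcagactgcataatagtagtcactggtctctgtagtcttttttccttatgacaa
Gbx2: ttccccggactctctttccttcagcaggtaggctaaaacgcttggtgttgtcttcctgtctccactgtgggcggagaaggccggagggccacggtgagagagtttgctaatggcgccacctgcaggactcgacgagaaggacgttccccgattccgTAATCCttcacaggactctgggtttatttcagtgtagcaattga
Nkx2-2: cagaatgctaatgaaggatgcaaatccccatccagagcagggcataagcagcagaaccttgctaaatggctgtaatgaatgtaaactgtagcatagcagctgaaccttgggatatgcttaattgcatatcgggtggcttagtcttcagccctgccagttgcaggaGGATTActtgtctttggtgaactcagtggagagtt
Pou4f1: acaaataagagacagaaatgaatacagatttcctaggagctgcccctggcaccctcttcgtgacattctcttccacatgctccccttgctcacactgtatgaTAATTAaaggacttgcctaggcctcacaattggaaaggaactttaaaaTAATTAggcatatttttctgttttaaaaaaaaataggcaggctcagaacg
En1: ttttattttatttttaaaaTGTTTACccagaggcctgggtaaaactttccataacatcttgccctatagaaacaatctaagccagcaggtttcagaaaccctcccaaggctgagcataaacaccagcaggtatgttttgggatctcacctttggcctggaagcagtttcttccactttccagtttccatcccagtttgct
Tph2: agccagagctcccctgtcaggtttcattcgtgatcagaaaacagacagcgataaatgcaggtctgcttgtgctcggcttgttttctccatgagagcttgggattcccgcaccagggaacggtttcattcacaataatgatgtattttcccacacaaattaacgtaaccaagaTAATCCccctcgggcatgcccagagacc
Ret: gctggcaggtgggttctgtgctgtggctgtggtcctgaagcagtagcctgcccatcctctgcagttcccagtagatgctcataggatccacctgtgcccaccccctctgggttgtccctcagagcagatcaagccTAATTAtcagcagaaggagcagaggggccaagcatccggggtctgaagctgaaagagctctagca
Neurog2: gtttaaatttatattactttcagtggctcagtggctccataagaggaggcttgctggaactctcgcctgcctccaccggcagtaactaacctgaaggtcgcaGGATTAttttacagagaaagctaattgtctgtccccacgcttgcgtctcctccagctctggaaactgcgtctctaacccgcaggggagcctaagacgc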

How the data were processed

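Of the deposited assays, ATAC-seq of 3 DA and 2 5-HT libraries was used, and RNA-seq was not analysed here. Per the paper and the submitters' processing notes, reads were cleaned with Trimmomatic and FastQC and mapped to mm9 with Bowtie2. Picard served to discard duplicates, MACS2 to call peaks, BEDOPS to join peaks under 100 bp apart and HOMER to annotate them. Versions and the peak threshold were not given in the sources used here. The authors deposited a score for each region and library, with 0 where no peak was called. Its scale is not named and the read depth is unknown, so scores were ranked or described within libraries. A misspelled chromosome name in 1 line was corrected.

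Regions were placed by their centre with the GENCODE annotation for mm9, and distances run to TSSs of any transcript of a protein-coding gene. A peak sharing 1 bp or more with a promoter was counted for it. Shares carry 95% Wilson intervals. Repeated sequence was measured with words of 75 bases in the central 200 bp. Of 290 listed genes, 289 were matched, Tfap2b and Spi1 by older names. Named were the 10 regions with the highest lowest percentile, the 10 genes with most regions, the nearest genes in the lists of DA lineage, serotonergic lineage, patterning and DA development signals, and the regions at the 50 kb limit. The regions, words and lists were chosen with earlier results of these data known. Alternatives were another annotation, promoter width, distance measure, number of peaks, merging, sequence window, standardisation and left-out libraries. Software was samtools 1.23.1 and Python 3.11.15 with numba 0.67.0, pandas 2.3.3, NumPy 2.4.6, pysam 0.24.0 and SciPy 1.17.1. The computations were tested on simulated data. Of the chosen sequence windows, 1 is not reported here.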

Additional observations from a re-analysis of the deposited data

How the results depend on the processing

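No paired analysis was possible because the results come from no test, although the labels number replicates 1 and 2 in both groups. At equal numbers of peaks, 737 regions with 705 nearest genes were chosen, 27.0% of those in all DA libraries, with a median distance of 16377 bp, 61.2% upstream, 39.1% with the promoter open in all libraries and 20 listed genes in place of 79. With the 10000 highest peaks of each library, 180 regions with 180 genes were chosen, 23.6% of those in all DA libraries, at 16640 bp, 59.4% upstream, 19.4% with an open promoter and 50.5% GC. These settings count fewer peaks by construction. Leaving out each library gave 3801 to 6499 regions (most without DA replicate 1), a DA-only share of 45.7 to 70.4% (highest without 5-HT replicate 1), a median distance of 17814 to 18859 bp, a share of open promoters of 51.7 to 62.3%, a GC content of 48.5 to 49.5% and 2962 to 4534 genes (most without DA replicate 1). Dropping regions with a 5-HT peak within 1 kb gave a share of 41.5%. Distances to protein-coding transcripts alone, chosen after seeing the data, gave 68.2% upstream, and the cause was not tested. The number of words with a higher share than in near regions of all 5 libraries was 9. It was 4 at equal numbers of peaks, chosen after seeing the data, where fewer regions widen the intervals, and 10 to 12 in 500 bp windows or standardised to GC or scores, where the standardised share has no interval. The number with a lower share was 1, and it was 2 in 500 bp windows, 4 standardised to GC and 3 standardised to scores, the last chosen after seeing the data. Counting any protein-coding TSS within 50 kb gave 5006 genes (22.5%) in place of 2816, 99 listed genes, 6 vascular and microglial genes in place of 3 and 5 Parkinson disease genes in place of 2, since a region can then count for several genes. The unknown read depth limits what a missing 5-HT peak shows.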

Other observations

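DA-only near regions were found on every chromosome from 1 to 19 and on X. Among near regions with a peak in all DA libraries, the DA-only share was highest on chromosome 5, at 54.2% (95% Wilson interval 49.6 to 58.7%), and on X, at 53.4% (46.3 to 60.4%), and lowest of these chromosomes on 17, at 38.2% (32.9 to 43.7%), against 44.1% overall. Chromosome 5 holds the repeated cluster around Gm17019. A TSS of an annotated long non-coding RNA lay within 5 kb of 41 DA-only near regions (1.15%, 0.852 to 1.56%), of 1.99% (1.47 to 2.69%) of the near regions of all 5 libraries and of 1.32% (1.18 to 1.47%) of all intergenic near regions.

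Among regions outside the named lists of lineage, patterning and signals, and picked after their values were seen, Plxna2, a semaphorin receptor subunit, had a region 12.4 kb downstream of a TSS with scores of 8.17, 11.6 and 10.3, and another 47.1 kb downstream with 3.89, 3.90 and 4.14. Tcfap2b, an AP-2 factor of the noradrenergic list, had a region 29.8 kb upstream with 12.2, 11.7 and 9.23, and its other region, 29.5 kb downstream, had 3.45, 5.22 and 3.50.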
